A study of Homo sapiens with 24 samples.

Results

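In U251 cells treated with G-1 at 1 µM for 72 h, *GLDN*, *SLC47A2*, *CELA1* and *A2M* were far lower than with the vehicle. *SLC47A2* and *CELA1* were then at background, whereas *GLDN* and *A2M* remained well above it. These 4 genes were selected on the size of their falls in that condition, out of 14235 genes with a symbol and a tested probe. Each is measured by 1 probe, so the set consists of 4 of the 22970 tested probes. The comparison of G-1 1 µM 72 h with DMSO 72 h is therefore a description of the selection and carries no test for them.

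U251 is a human glioblastoma (GBM) cell line, and G-1 is an agonist of GPER, the G protein-coupled estrogen receptor. The cells were kept in medium with charcoal-stripped serum, which lacks steroid hormones, before exposure. Gene expression was measured in 6 groups of 4 biological replicates: the vehicle DMSO (0.1% per the labels, whereas the methods text gives a lower concentration), G-1 at its IC50 dose, and G-1 at 1 µM, each for 24 h and for 72 h, with the durations of the sample titles. All groups come from this single line, so p-values measure the spread between cultures of U251. In RNA from whole cultures, fewer expressing cells and less RNA per cell cannot be told apart.

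The 4 genes have unrelated known roles. *GLDN* encodes gliomedin, a collagen-like protein with an olfactomedin domain that Schwann cells place at nodes of Ranvier, where it binds neurofascin and NrCAM and gathers sodium channels. *SLC47A2* encodes MATE2-K, an exchanger of protons for organic cations in the kidney proximal tubule, which carries drugs such as metformin into the urine. *CELA1* encodes elastase 1, a serine protease able to cut elastin, and *A2M* encodes alpha-2-macroglobulin, a large secreted inhibitor that traps proteases of many classes and is then taken up by cells through LRP1. *A2M* is thus known as an inhibitor of the enzyme class to which *CELA1* belongs.

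Promoter sequences from RefSeq (GRCh38.p14) were matched for 2 of the 4 genes, *SLC47A2* with 2 start sites and *CELA1* with 1. They cover 250 bases before and 50 bases after the annotated start. Only these genes are shown because no promoter sequence was available for *GLDN* and *A2M*. *CELA1* lies on the minus strand at chr12:51346630-51346929, and the first *SLC47A2* window on the minus strand at chr17:19718930-19719229. Capitals mark matches to 6 motifs searched on both strands (TATAAA for the TATA box, CCAAT for the CCAAT box, GGGCGG for the GC box, TGANTCA for AP-1, TTCNNNGAA for STAT factors and CACGTG for the E-box).
CELA1: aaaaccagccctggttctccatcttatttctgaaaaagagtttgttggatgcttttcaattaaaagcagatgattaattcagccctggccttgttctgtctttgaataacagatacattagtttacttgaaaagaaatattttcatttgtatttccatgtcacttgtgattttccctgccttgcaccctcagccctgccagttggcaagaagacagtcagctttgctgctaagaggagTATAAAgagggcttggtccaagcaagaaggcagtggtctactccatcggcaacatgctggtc
SLC47A2: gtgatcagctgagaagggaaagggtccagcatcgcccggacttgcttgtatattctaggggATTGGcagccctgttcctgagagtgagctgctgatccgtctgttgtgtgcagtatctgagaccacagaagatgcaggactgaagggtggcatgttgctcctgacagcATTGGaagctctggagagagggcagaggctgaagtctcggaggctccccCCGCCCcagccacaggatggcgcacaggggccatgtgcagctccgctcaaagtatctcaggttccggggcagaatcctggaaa

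The *CELA1* window held TATAAA at position 239 counted from its first base, which is -12 from the annotated start. This motif was found in 11.5% of 35116 RefSeq promoter windows of the same length, at any position. Its GC content was 42%, against a median of 58.7% over those windows. The first *SLC47A2* window, with 57.7% GC, held CCAAT on the opposite strand at positions 62 and 169 and GGGCGG on the opposite strand at position 218. CCAAT was present in 34.6% and GGGCGG in 45.0% of all windows. The second *SLC47A2* window, at chr17:19716535-19716834, held CCAAT at position 2. None of the 3 windows held the motif of AP-1, of STAT factors or of the E-box, which were present in 7.71%, 7.66% and 7.26% of all windows. No motif was shared by *CELA1* and *SLC47A2*. These matches describe letters in the windows and nothing about binding.

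*GLDN* lies on chromosome 15 from 51341655 to 51413365, *SLC47A2* on chromosome 17 from 19678317 to 19718979, *CELA1* on chromosome 12 from 51328442 to 51346679, and *A2M* on chromosome 12 from 9067708 to 9116229 (GRCh38.p14). The 2 genes on chromosome 12 are far apart. Each probe was named by 1 RefSeq transcript of its gene, and the *A2M* probe was spotted 10 times per array. Its spots agreed within an SD between 0.020 and 0.188 on the log2 scale.

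The 8 arrays with 1 µM filled 1 slide of their own, which was scanned separately from the other 2 slides, on which vehicle and IC50 arrays were mixed. Well above background were 38.0% to 40.7% of the spots of that slide, against 41.1% to 44.5% elsewhere. This flag of Feature Extraction marks spots whose signal clearly exceeds the background around them. At one duration, the 1 µM dose and its slide cannot be told apart, whereas 1 µM 72 h and 1 µM 24 h shared the slide. The label of the cells was checked on markers. All 9 glioma and astroglia markers were above background on all 24 arrays, among them *VIM*, *NES* and *SOX2*. Among markers of other cell types, those at background on every array included *SOX10* (Schwann cell), *SLC22A2* and *SLC22A6* (kidney tubule), *PRSS1* and *PNLIP* (pancreas acinus) and *ALB* and *TTR* (hepatocyte). Of the whole lists, 1 of 5 Schwann cell markers (*EGR2*), 1 of 5 kidney markers (*LRP2*), 1 of 5 pancreas markers (*CEL*) and 2 of 5 hepatocyte markers (*APOA1* and *SERPINA1*) passed the filter for testing. Of the endothelium markers, *VWF* and *CDH5* passed it, above background on 23 and 16 of 24 arrays. *PECAM1* and *TEK*, also of endothelium, were at background on every array.

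*GLDN* was among the brighter probes of U251 cells in 5 of the 6 groups. Values below are log2 intensities relative to the 75th percentile of the array, so that 0 is the 75th percentile itself, and follow the order of replicates 1 to 4. With DMSO, the values were 5.44, 5.31, 5.59 and 5.80 at 24 h, and 5.60, 5.47, 5.31 and 5.70 at 72 h. With G-1 IC50 they were 5.20, 5.24, 5.48 and 5.83 at 24 h, and 5.40, 5.37, 5.23 and 5.77 at 72 h. These 16 arrays overlapped completely, with group means between 5.44 and 5.53. With G-1 1 µM, *GLDN* was 4.64, 4.61, 4.88 and 5.33 at 24 h. At 72 h it was 0.73, -0.30, 0.94 and 1.27, far below every other array. The mean intensity was 6110 with DMSO 72 h and 241 with G-1 1 µM 72 h, a difference of -4.86 on the log2 scale or 29.0-fold. *GLDN* nevertheless remained above background on all 4 G-1 1 µM 72 h arrays.

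*SLC47A2* was a dim probe throughout. With DMSO it was -2.71, -1.52, -1.44 and -1.29 at 24 h, where replicate 1 was not well above background, and -0.61, -0.95, -0.65 and -0.51 at 72 h. With G-1 IC50 it was -1.62, -1.56, -1.24 and -1.07 at 24 h, and -0.23, -0.40, -0.51 and 0.53 at 72 h. Thus, every array of a treatment was higher at 72 h than at 24 h with both DMSO and G-1 IC50. With G-1 1 µM at 24 h the values were -2.47, -2.95, -2.41 and -1.76, and only replicates 3 and 4 were well above background. At 72 h they were -4.70, -5.06, -5.11 and -4.50, and none was above background. The mean intensity was 83.5 with DMSO 72 h and 4.94 with G-1 1 µM 72 h. With the lowest signal detected on each G-1 1 µM 72 h array as the limit, *SLC47A2* was at least 4.41-fold lower. The difference of the measured values was -4.16. This bound is approximate, because a spot not well above background can exceed that limit.

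*CELA1* had an intermediate signal that already differed between doses. With DMSO it was -0.13, -0.51, -0.07 and -0.10 at 24 h, and 0.73, 0.50, 0.53 and 0.88 at 72 h. With G-1 IC50 it was -0.55, -0.69, -0.93 and -0.43 at 24 h, and -0.78, -0.83, -0.52 and -0.18 at 72 h. The DMSO 72 h arrays were the highest of all, and no G-1 IC50 72 h array reached them. With G-1 1 µM it was -1.32, -1.32, -1.62 and -0.76 at 24 h, with all arrays above background. At 72 h it was -3.10, -3.18, -3.59 and -2.95, with none above background. The mean intensity was 211 with DMSO 72 h and 15.2 with G-1 1 µM 72 h. By the same approximate bound *CELA1* was at least 11.2-fold lower, where the measured difference was -3.87.

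With DMSO and with G-1 IC50, *A2M* differed more between 24 h and 72 h than the other 3 genes. With DMSO it was 4.69, 4.54, 4.72 and 5.50 at 24 h, and 6.36, 6.47, 5.83 and 6.45 at 72 h. With G-1 IC50 it was 4.44, 4.64, 4.60 and 5.27 at 24 h, and 6.78, 7.06, 6.61 and 6.97 at 72 h. Every 72 h array of these treatments exceeded every 24 h array. With G-1 1 µM it was 4.37, 4.56, 4.67 and 5.23 at 24 h, within the range of the other 24 h arrays except for the lowest value. At 72 h it was 3.25, 2.85, 3.74 and 3.88, below all other groups. The mean intensity was 10396 with DMSO 72 h and 1585 with G-1 1 µM 72 h, a difference of -2.85 or 7.19-fold. All 4 G-1 1 µM 72 h arrays were still well above background.

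**Figure D1:**
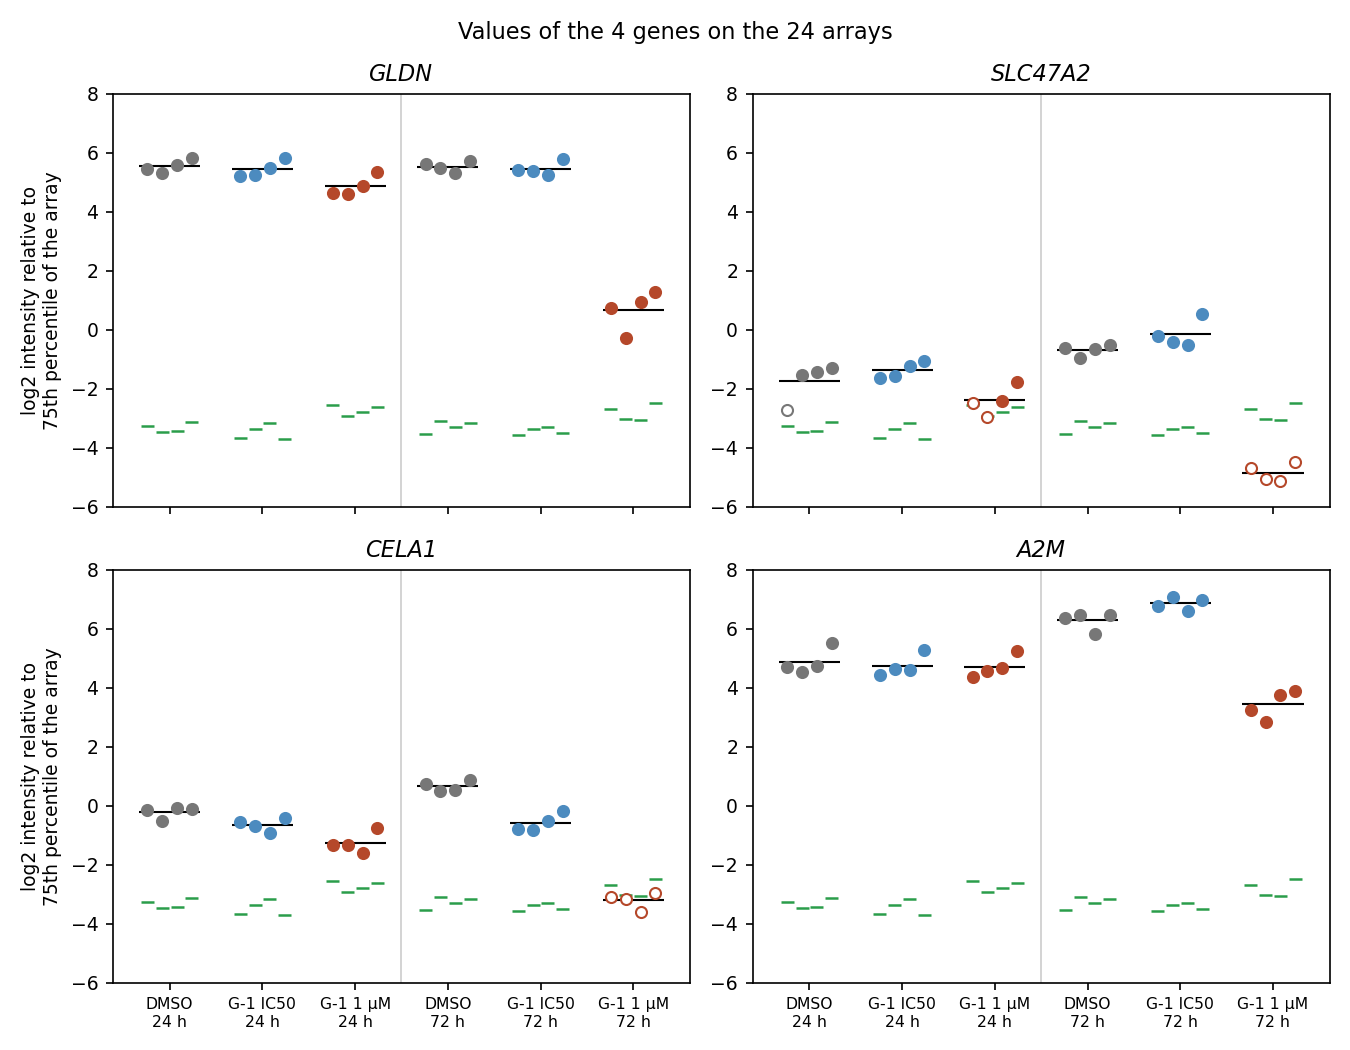
Log2 intensity relative to the 75th percentile of the array (vertical axis) of the 4 genes on the 4 arrays of each group (horizontal axis), in the order of replicates 1 to 4. Filled points were well above background and open points were not, black lines are group means, and short green lines give the lowest signal of any probe well above background on that array; the G-1 1 µM 72 h points are the lowest of each gene, and lie at or under the green lines for *SLC47A2* and *CELA1* only.

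A fall to background was thus seen for 2 of the 4 genes, *SLC47A2* and *CELA1*, and "nearly silenced" does not hold for *GLDN* and *A2M*, which fell from high levels to detectable ones. The lowest detected signal lay between -3.06 and -2.48 on the G-1 1 µM 72 h arrays and between -3.54 and -3.11 on the DMSO 72 h arrays. The highest *CELA1* value at G-1 1 µM 72 h, -2.95, was above the latter range. Whether its background status depends on the slide was not tested. On the G-1 1 µM 72 h arrays, *A2M* had a mean of 3.43 ± 0.47 (SD, n = 4) and *GLDN* 0.66 ± 0.68. In that contrast every array of the treated group was below every DMSO array for all 4 genes, as for 27.3% of all tested probes, and 8.56% of all tested probes were called lower. Both shares are background to a choice made in this contrast. Under normexp background correction, which adds an offset of 50 to each intensity, the differences were -0.94 for *SLC47A2* and -1.83 for *CELA1*, against -4.53 for *GLDN* and -2.81 for *A2M*. The size of the falls of the dim pair therefore depends on how background is treated.

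Ranked by the measured difference over 14235 genes, *GLDN* was first, *SLC47A2* the second and *CELA1* the third, and *A2M* was 24th. *GDA*, which encodes guanine deaminase, followed *CELA1* with -3.73. *PADI2*, a peptidylarginine deiminase, followed *A2M* with -2.84, and then came *ELMOD1* with -2.84, *KLF3-AS1* with -2.83 and *DNAJA4*, a co-chaperone, with -2.83. Genes without signal at G-1 1 µM 72 h have only a bound, so that their order among the largest falls is not settled. *GLDN* had the largest difference among the genes measured on both sides.

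**Figure D2:**
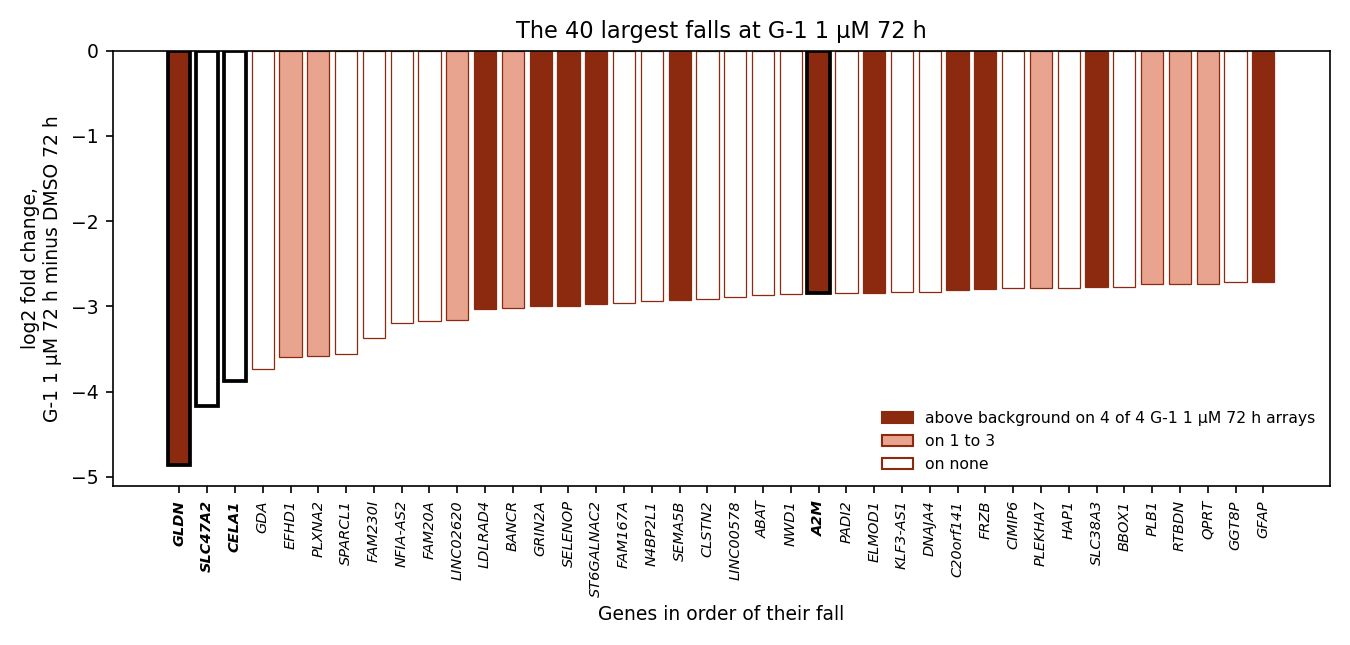
Log2 fold change of G-1 1 µM 72 h against DMSO 72 h (vertical axis) for the 40 genes with the largest falls, in order (horizontal axis), with the 4 described genes outlined in black. The fill gives on how many of the 4 G-1 1 µM 72 h arrays the gene was well above background; *GLDN* and *A2M* were so on all 4, and *SLC47A2* and *CELA1* on none.

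Within 1 slide, G-1 1 µM 72 h can be set against G-1 1 µM 24 h without a difference of slide or session. Every 72 h array was below every 24 h array for all 4 genes, as for 19.6% of all tested probes. The difference was -4.20 for *GLDN*, 18.4-fold. It was -1.28 for *A2M*, 2.42-fold. By approximate bounds, *CELA1* was at least 2.95-fold lower and *SLC47A2* at least 1.34-fold lower. Only 2 of the 4 *SLC47A2* arrays at 24 h were above background, and its 24 h mean includes the others. These values hold the arrays that selected the genes and are a description.

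With DMSO alone, the levels also moved between 24 h and 72 h, for which the DMSO 72 h arrays of the selection are used and no test is given. *A2M* was 1.41 higher at 72 h (2.66-fold), *SLC47A2* 1.06 higher (2.09-fold) and *CELA1* 0.87 higher (1.82-fold), whereas *GLDN* differed by -0.01. In 3 of the 4 genes all DMSO 72 h arrays were above all DMSO 24 h arrays, as for 3.89% of all tested probes. The level of G-1 1 µM 72 h was below that of DMSO 24 h as well, by means of 0.66 against 5.53 for *GLDN*, -4.84 against -1.74 for *SLC47A2*, -3.21 against -0.20 for *CELA1* and 3.43 against 4.86 for *A2M*.

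G-1 1 µM for 24 h is the first comparison whose arrays did not enter the selection. It is not fully independent of it: its treated arrays share the slide of the selecting G-1 1 µM 72 h arrays, and limma estimates the spread over all 24 arrays. With only the arrays of the comparison, the limma adjusted p was 0.00823 for *CELA1*, 0.0300 for *GLDN*, 0.199 for *SLC47A2* and 0.672 for *A2M*. The values that follow are from the fit to all arrays. *CELA1* was lower by -1.05 on the log2 scale (2.07-fold, SE 0.18, 95% interval -1.42 to -0.68), and was called with a limma adjusted p of 2.9e-04. All 4 treated arrays were below all 4 DMSO arrays, as for 11.5% of all tested probes (exact permutation p = 0.0286). It was 1 of the 4 genes called lower, against 2.05% of all tested probes, and none of the 4 was called higher, against 0.596%. *GLDN* differed by -0.67 (1.59-fold, SE 0.24) with an adjusted p of 0.0416 but stayed under 2-fold, and its groups overlapped by replicate 4 of G-1 1 µM (exact permutation p = 0.0571). *SLC47A2* differed by -0.66 (SE 0.28, adjusted p = 0.0831 by limma, and 0.0270 with the replicate number as a block) with overlapping groups, and *A2M* by -0.16 (95% interval -0.67 to 0.35, limma adjusted p = 0.663). The *CELA1* call was lost without replicate 3 of G-1 1 µM 24 h (-0.93) and under normexp (-0.54). Slide and dose cannot be told apart here.

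G-1 at the IC50 dose for 24 h called none of the 4 genes by limma, where 0.0435% of all tested probes were called in either direction. At an unadjusted limma p under 0.05 there was 1 of 4, *CELA1*, against 1021 of the 22970 tested probes. *CELA1* differed by -0.45 (95% interval -0.82 to -0.08, limma adjusted p = 0.882). *GLDN* differed by -0.10 (-0.60 to 0.40), *SLC47A2* by 0.37 (-0.22 to 0.95) and *A2M* by -0.13 (-0.64 to 0.38). All 4 pairs of groups overlapped. The methods' t-test called none of the 4 genes, with or without adjustment. Within the first slide *CELA1* differed by -0.71 and within the second by 0.02, where DMSO 24 h had 1 array.

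At the IC50 dose for 72 h the 4 genes took different directions. The DMSO 72 h arrays are the reference here and also of the selection, which favoured genes that were high on them, so the values are a description without a test. *CELA1* was lower than with DMSO by -1.24 (2.36-fold). All of its G-1 arrays lay below all DMSO arrays, as for 4.52% of all tested probes. It was the 1 gene of the 4 past the fold and adjusted p used for calls, where 0.0479% of all tested probes were called lower, and nothing is read from this count. *A2M* and *SLC47A2* had all G-1 arrays above all DMSO arrays, as for 2.39% of all tested probes. The differences were 0.58 for *A2M* and 0.53 for *SLC47A2*. *GLDN* differed by -0.08 with overlapping groups.

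The *CELA1* difference was -1.52 within the first slide, where G-1 IC50 72 h had 1 array, and -1.12 within the second. It was -0.88 under normexp.

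**Figure D3:**
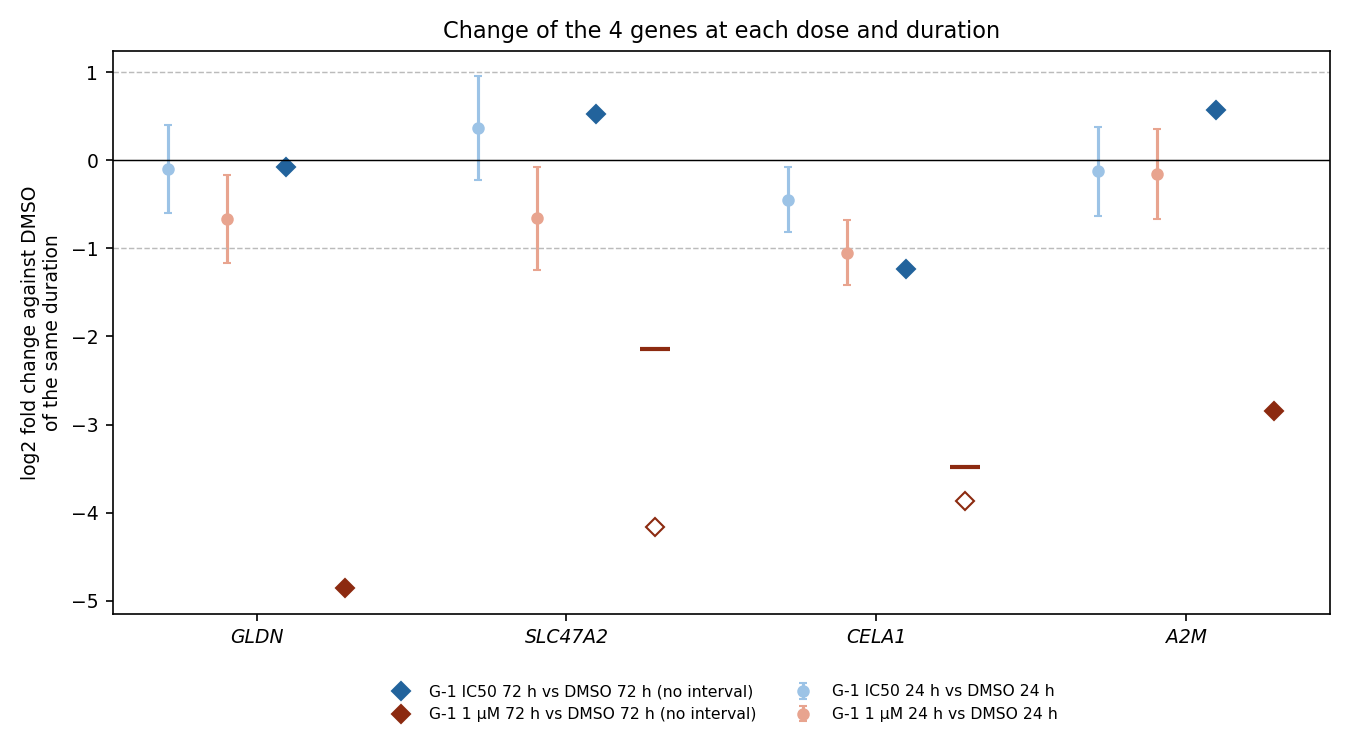
Log2 fold change against DMSO of the same duration (vertical axis) for the 4 genes at each dose and duration. Circles (24 h) carry the 95% interval of the limma fit, diamonds (72 h) carry none because the DMSO 72 h arrays entered the selection, open diamonds have no array above background and the bar above them is the bound; dashed lines mark a 2-fold change, which *CELA1* exceeds at G-1 1 µM 24 h and at G-1 IC50 72 h.

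The doses were compared at 24 h on arrays outside the selection, where dose and slide cannot be told apart. The 1 µM arrays share the slide of the selecting 1 µM 72 h arrays. *SLC47A2* was lower with 1 µM than with the IC50 dose by -1.02 (2.03-fold, SE 0.28) and was called (limma adjusted p = 0.0113), as 2.15% of all tested probes were called lower. Its groups did not overlap, as for 9.85% of all tested probes in that direction. Only 2 of the 4 arrays at 1 µM were above background, and under normexp the difference was -0.15 (limma adjusted p = 0.367). Leaving out 1 µM replicate 1 or 2, or IC50 replicate 3 or 4, also ended the call, since the difference fell under 2-fold (-0.84 without 1 µM replicate 2). *CELA1* differed by -0.61 (adjusted p = 0.0160 by limma, 1.52-fold), *GLDN* by -0.57 (adjusted p = 0.0844, and 0.0161 with the replicate number as a block) and *A2M* by -0.03 (95% interval -0.54 to 0.48). At 72 h the doses differed by -4.78 for *GLDN* and -3.42 for *A2M*. By approximate bounds, *SLC47A2* was at least 6.34-fold and *CELA1* at least 4.74-fold lower with 1 µM. All of these 72 h values rest on the selecting arrays.

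Duration at the IC50 dose separated the 4 genes into pairs. *A2M* rose by 2.12 from 24 h to 72 h (4.34-fold, SE 0.25, 95% interval 1.61 to 2.63, limma adjusted p = 2.7e-05). *SLC47A2* rose by 1.22 (2.33-fold, SE 0.28, limma adjusted p = 0.0154). All 72 h arrays of both genes were above all 24 h arrays, as for 2.93% of all tested probes, and 0.100% of all tested probes were called higher. *GLDN* differed by 0.00 (95% interval -0.50 to 0.50) and *CELA1* by 0.08 (-0.29 to 0.44). Within the first slide the differences were 2.44 for *A2M* and 1.00 for *SLC47A2*, and within the second 1.93 and 1.28. Treatment duration and time in culture are the same in this contrast, and *A2M* and *SLC47A2* were higher at 72 h with DMSO too. The *SLC47A2* call was lost without IC50 24 h replicate 2 (1.16), without IC50 72 h replicate 4 (0.99) and under normexp (0.71).

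How far the IC50 effect differed between durations was read from the interaction, which rests on the DMSO 72 h arrays too and is again a description for the 4 genes. Of all tested probes, 0% were called by limma, and 939 had an unadjusted p under 0.05. The interaction was -0.79 for *CELA1*, 0.70 for *A2M*, 0.16 for *SLC47A2* and 0.02 for *GLDN*.

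By mean level, *GLDN* ran from DMSO 24 h (5.53) over DMSO 72 h (5.52) and both IC50 groups (5.44 each) to 1 µM 24 h (4.87) and 1 µM 72 h (0.66), and the first 4 did not differ beyond their spread. *SLC47A2* ran from IC50 72 h (-0.15) over DMSO 72 h (-0.68), IC50 24 h (-1.37), DMSO 24 h (-1.74) and 1 µM 24 h (-2.40) to 1 µM 72 h (-4.84). *CELA1* ran from DMSO 72 h (0.66) over DMSO 24 h (-0.20), IC50 72 h (-0.57), IC50 24 h (-0.65) and 1 µM 24 h (-1.25) to 1 µM 72 h (-3.21). *A2M* ran from IC50 72 h (6.85) over DMSO 72 h (6.28), DMSO 24 h (4.86), IC50 24 h (4.74) and 1 µM 24 h (4.71) to 1 µM 72 h (3.43), and its 24 h groups overlapped. The 4 genes share the lowest place of 1 µM 72 h, which the selection fixes, and differ in the order of the other groups.

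Over the 24 arrays, the 4 genes had pairwise Pearson correlations between 0.717 (*GLDN* with *A2M*) and 0.898 (*GLDN* with *CELA1*), which all contain the shared fall. After subtraction of the group means they lay between 0.345 (*CELA1* with *A2M*) and 0.843 (*GLDN* with *A2M*). Replicate 4 was the highest of its group in 6 of 6 groups for *GLDN* and *SLC47A2*, in 5 of 6 for *CELA1* and in 4 of 6 for *A2M*, 21 of 24 cases in all. Replicate 4 was highest in all 6 groups for 0.657% of all tested probes, and in at least 5 groups for 3.17%. The 24 cases are not independent, since the genes correlate within groups. This count was chosen after the values were seen and is a description, whose relation to the cultures was not tested.

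The genes with the most similar profiles were sought over the 24 arrays, without regard to function. For *GLDN* they were *EFHD1* (r = 0.992), a mitochondrial calcium-binding protein, *ALOX12-AS1* (r = 0.990) and *BTG2* (r = 0.989), an antiproliferative gene. *EFHD1* went from 1.06 with DMSO 72 h to -2.53 with 1 µM 72 h, and *BTG2* from 3.77 to 1.39. For *SLC47A2* they were *LINC00930* (r = 0.971), *PROS1* (r = 0.966), which encodes the anticoagulant protein S, and *KDM7A-DT* (r = 0.964). *PROS1* went from 4.27 to 2.13 and was also higher at 72 h than at 24 h with DMSO (3.69 at 24 h).

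For *CELA1* the nearest profiles were those of *VLDLR-AS1* (r = 0.969), *PTPRS* (r = 0.967), a receptor tyrosine phosphatase, and *CNIH3* (r = 0.965), an auxiliary protein of AMPA receptors. *CNIH3* went from 3.72 with DMSO 72 h to 1.31 with 1 µM 72 h. For *A2M* they were *ITGA11* (r = 0.960), an integrin that binds collagen, *LZTS1* (r = 0.951) and *SPON2* (r = 0.944), a matrix protein. *SPON2* went from -0.12 with DMSO 24 h to 0.85 with DMSO 72 h and 0.92 with IC50 72 h, and was -1.17 with 1 µM 72 h. The fall at 1 µM 72 h dominates all of these correlations.

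**Figure D4:**
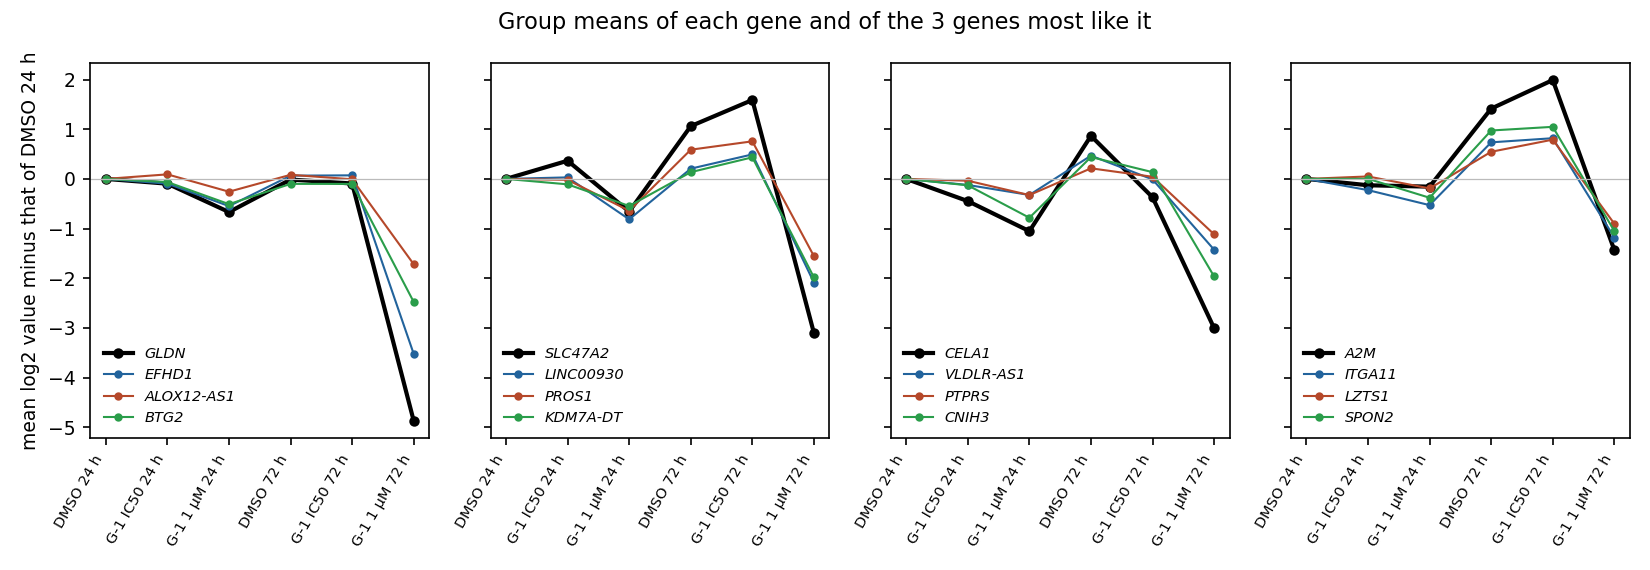
Group means of log2 values minus the mean of DMSO 24 h (vertical axis) over the 6 groups (horizontal axis) for each of the 4 genes (black) and the 3 genes with the highest correlation over the 24 arrays (coloured). *GLDN* is level over DMSO and IC50, whereas *A2M* and *SLC47A2* are higher at 72 h with DMSO and IC50, and all fall at G-1 1 µM 72 h.

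On either side of each of the 4 genes, the nearest protein-coding gene with a tested probe was read. Genes without a tested probe were passed over, so "next to" need not mean adjacent. *CYP19A1*, which encodes aromatase, the enzyme that makes estrogens from androgens, is the neighbour of *GLDN* and fell by 1.95 at 1 µM 72 h against DMSO 72 h (limma adjusted p = 8.3e-09). Its second tested probe went from 0.09 to -3.04, with 2 of 4 arrays above background. *DMXL2*, on the other side, differed by -0.17 (adjusted p = 0.620 by limma). Next to *SLC47A2*, *ALDH3A2* differed by -0.69 and *ULK2* by -0.59. Next to *CELA1*, *SMAGP* differed by 0.44 and *GALNT6* by -0.86. Next to *A2M*, *M6PR* differed by 0.73 and *CLEC2D* by 0.97, both in the opposite direction to *A2M*. None of these 6 exceeded 2-fold. *KLRG1*, a receptor of lymphocytes whose annotated span (8950044 to 9215570) covers that of *A2M*, fell by 1.37, from -1.16 to -2.53 (limma adjusted p = 1.6e-05), with 3 of 4 arrays at 1 µM 72 h above background. The antisense gene *A2M-AS1* had 1 tested probe, with -1.89 at DMSO 72 h and -2.84 at 1 µM 72 h, where 1 of 4 arrays was above background.

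The known partners of the 4 genes were described by lists, with counts to be read against the shares of all tested probes called at 1 µM 72 h against DMSO 72 h, 8.56% lower and 5.07% higher. Of 15 partners of gliomedin and other node of Ranvier genes, 10 were tested and none was called in any comparison by limma. Their median difference at 1 µM 72 h was -0.05, against 0.03 over all genes. Neurofascin (*NFASC*) differed by 0.03 and *NRCAM* by 0.02, both being receptors of gliomedin. *SPTBN4*, a spectrin of the node, differed by -0.79 (adjusted p = 1.4e-04 by limma), which is under 2-fold. Of 12 other olfactomedin domain genes, 3 were tested and 2 were called: *OLFML2B* fell by 1.56 and *OLFML2A* fell by 1.08. *ADGRL1*, the third, differed by -0.71.

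Of 11 other organic cation transporters, 4 were tested and none was called in any comparison by limma, with a median difference of -0.04 at 1 µM 72 h. *SLC22A5*, which takes up carnitine, differed by 0.10 and *SLC22A4* by 0.08. Both probes of *SLC47A1*, the closest relative of *SLC47A2*, were at background on all arrays. Of 15 elastases and related serine proteases, 2 were tested and none was called by limma, and the other *CELA* genes were at background on all arrays. *CTRL*, a chymotrypsin-like protease, differed by 0.98 (limma adjusted p = 3.4e-06), just under 2-fold. Of 9 genes for elastin, its assembly and elastase inhibitors, 3 were tested, and *LOX*, which crosslinks elastin and collagen, rose by 1.51 (limma adjusted p = 1.8e-04). *ELN* itself was at background on all arrays.

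Of 8 relatives of *A2M*, 3 were tested. *C4B*, a complement component, fell by 1.35, although its probe may also capture the nearly identical *C4A*. *CD109*, a membrane-bound relative, differed by -0.51 and *C5* by -0.61, both under 2-fold. *PZP*, the closest relative, was at background on all arrays. All 6 receptors and clearance genes were tested. *LRP1*, the main receptor of alpha-2-macroglobulin, differed by -0.98 at 1 µM 72 h, just under 2-fold, and *VLDLR* fell by 1.31. *LRP2* was lower by -1.07 with 1 µM 24 h than with IC50 24 h. Its probe was above background on 19 of 24 arrays.

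Of 20 acute phase genes and components of the STAT3 pathway, 9 were tested. *SERPINA3*, a serine protease inhibitor made by reactive astrocytes, fell by 1.32 and *IL6R* by 1.17 at 1 µM 72 h. *IL6* differed by 0.71 and *STAT3* by 0.46, under 2-fold, and the median difference was 0.06 against 0.03 over all genes. No gene of this list was called at 24 h or with the IC50 dose by limma. *GFAP*, the astrocyte filament, was the 40th in the order of falls with -2.71, and went from 6.73 with DMSO 72 h to 4.01 with 1 µM 72 h.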

How the data were processed

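RNA of U251 cells was labelled with Cy3 and hybridized to 24 Agilent 1-colour arrays. The authors deposited the background-subtracted intensity of each spot with 0 or 1 quality flags (Feature Extraction 12.1.1.1 per the file headers, 10.7.3.1 per the labels), and a log2 table whose values, according to a comparison with the intensities, had been scaled per array by its 75th percentile and then centred on the median of each probe (largest difference 0.0106 over 58118 probes). Groups and durations were taken from the titles, because the duration entry of the labels contradicts the titles of 2 groups (the IC50 dose at 24 h, the 1 µM dose at 72 h).

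Here, the spots of a probe were averaged as log2 intensities, without outlier spots, minus the array's own 75th percentile. Probe accessions were matched to gene symbols through RefSeq, and 35032 of 58201 probes matched. A probe entered the test if some group had it well above background on each of its 4 arrays, which held for 22970 probes, the 4 of the described genes included. One model with 6 group means was fitted with limma 3.58.1 in R 4.3.3, and Benjamini-Hochberg adjustment ran over all tested probes. Probes were called at an adjusted p under 0.05 and |FC| > 2. Intervals are at 95%. For single genes, two-sided exact permutation tests were used, which with 4 arrays per group cannot go below p = 0.0286. The procedure was tested on simulated data. For a group without any array above background, the fold change is an approximate lower bound. It is computed against the lowest detected signal of each array. Spots not well above background can exceed that signal, as *SLC47A2* did on DMSO 24 h replicate 1 (intensity 19.7 against 13.4). The arrays carry no counts, and precision is limited by their number and, for dim probes, by the background.

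The 4 genes were chosen by their falls at G-1 1 µM 72 h, and the gene lists, motifs and alternatives were written with earlier results of these data known. Other genes were named when their profile over the arrays was most like that of a member, or when they ranked just after a member by the fall. Others were named when they were called within a list. The nearest tested genes beside a member and genes overlapping it were also named (chosen after the members' values were seen). Deviations of arrays with the same replicate number correlated between 0.166 and 0.281 for DMSO 24 h with G-1 1 µM 24 h. They correlated between 0.202 and 0.308 for G-1 IC50 24 h with G-1 1 µM 24 h. However, replicate 1 of DMSO 24 h and of G-1 IC50 24 h correlated most with replicate 2 of G-1 1 µM 24 h. Pairing by number is therefore not settled by the data. In each of the other pairs of groups, at least 1 of the 4 correlations was under 0.1, although the others reached 0.485 for DMSO 72 h with G-1 IC50 72 h (lowest 0.0528) and 0.530 between the durations of G-1 IC50 (lowest 0.0727). Some members of the gene lists are not reported here, although the counts over the lists include them.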

Additional observations from a re-analysis of the deposited data

Results flagged for a closer look

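In each group of 4 arrays, the gap of the most extreme array to its nearest neighbour was divided by the range of the group and compared with Dixon's 95% critical value. Of 24 groups checked (4 genes in 6 groups), 2 exceeded it, and chance gives about 1 in 20. *SLC47A2* on the DMSO 24 h array of replicate 1 had -2.71, whereas the other replicates lay between -1.52 and -1.29, and this array was also the only DMSO array on which *SLC47A2* was not well above background. Without it, *SLC47A2* differed by -0.98 between G-1 1 µM 24 h and DMSO 24 h instead of -0.66. *CELA1* on the DMSO 24 h array of replicate 2 had -0.51, and the other replicates lay between -0.13 and -0.07.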

How the results depend on the processing

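Of 135 recomputed counts of called member probes, 113 kept their value, and 522 of 544 recomputed member values kept their direction; the 22 that turned were no larger than 0.149. Normexp took the count to 0 for G-1 1 µM 24 h against DMSO 24 h, G-1 IC50 72 h against DMSO 72 h and G-1 1 µM 24 h against G-1 IC50 24 h, and from 2 to 1 for G-1 IC50 72 h against G-1 IC50 24 h. By construction its offset shrinks dim probes. Keeping only probes above background on all 24 arrays gave the same 0, 0, 0 and 1, because *CELA1* and *SLC47A2* were then not tested. The methods' t-test after adjustment gave 0 for IC50 72 h against DMSO 72 h, 0 between doses at 24 h, and 1 between durations of IC50. Quantile normalization gave 0 between doses at 24 h (*SLC47A2* -0.93), no filter gave 1 between durations of IC50 (*SLC47A2* adjusted p = 0.0567), and an adjusted p alone gave 2 for 1 µM 24 h against DMSO 24 h and 2 between doses. Leaving out 1 array gave between 0 and 1 called for 1 µM 24 h against DMSO 24 h and between doses at 24 h, and between 1 and 2 between durations of IC50.

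Values that changed sign were near 0. Values against DMSO 72 h and interactions are descriptions. *GLDN* reached 0.0058 for IC50 72 h against DMSO 72 h at the 50th percentile, -0.0053 between durations of IC50 at the 50th percentile and -0.026 with normexp, and -0.0012 for the interaction with normexp. Over single arrays left out, *A2M* ran from -0.33 to 0.055 (1 µM 24 h against DMSO), -0.30 to 0.083 (IC50 24 h against DMSO) and -0.20 to 0.15 (between doses), *GLDN* from -0.11 to 0.13 and *CELA1* from -0.056 to 0.16 (between durations of IC50), and the interactions of *GLDN* from -0.094 to 0.15 and of *SLC47A2* from -0.067 to 0.48.

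With the replicate number as a replicate block over all arrays, no member call changed. The counts were 1, 0, 1, 1, 2 and 0 in the 6 comparisons, in the order of the Results. Of all tested probes, the main fit called 2.65%, 0.0435%, 0.0958%, 2.61%, 0.279% and 0% in either direction. IC50 72 h against DMSO 72 h and the interaction use the DMSO 72 h arrays of the selection, so their counts are descriptions. The replicate block within each duration, added after the data were seen, changed none in the 5 comparisons it could be fitted to. The count over all probes for 1 µM 24 h against DMSO 24 h was 608, with 72 under normexp, 1815 without a filter, 194 with probes above background on all 24 arrays, 6813 for adjusted p alone and 366 by the adjusted t-test. Under the same settings, the 599 between doses at 24 h became 109, 2976, 209, 6052 and 355. The 22 for IC50 72 h against DMSO 72 h became 3 (normexp), 10 (all 24 arrays), 158 (adjusted p alone) and 4 (adjusted t-test), and the 64 between durations of IC50 became 16, 33, 860 and 7. The 10 for IC50 24 h against DMSO 24 h became 4 (normexp), 2 (its own arrays only), 44 (adjusted p alone), 0 (adjusted t-test) and 4 without IC50 24 h replicate 3. The 0 of the interaction became at most 8 (replicate block within each duration). At the 50th percentile the median of all probes between doses at 24 h shifted by -0.13. Dim signal limits *SLC47A2* most, and each gene rests on 1 probe.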
